A study of Arabidopsis thaliana with 6 samples.

Results

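LBD16, IAA29 and IAA30 are 3 transcriptional regulators of the auxin response in Arabidopsis thaliana, described here in wild-type and dcl1-15 mutant embryos. They were taken by gene name: each is the only gene that the platform annotation gives for 1 probe set. Their loci are AT2G42430 for LBD16, AT4G32280 for IAA29 and AT3G62100 for IAA30. They are 3 of the 9532 genes with such a probe set on these arrays. No measured value entered this choice of names, but it was made with earlier results of these data known.

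Auxin, a plant hormone that sets the poles and organs of the embryo, acts by removing repressors. Aux/IAA proteins such as IAA29 and IAA30 bind auxin response factors (ARFs) and hold their target genes off, and auxin makes the TIR1/AFB receptors mark most Aux/IAA proteins for destruction through a short degron. IAA30, with its relative IAA20, belongs to the Aux/IAA proteins that lack this degron. LBD16, a transcription factor of the LOB-domain family, lies at the output end. In roots its gene is switched on by ARF7 and ARF19 when a lateral root is founded.

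Gene expression was measured on 6 single-colour oligonucleotide arrays, 3 with RNA of wild-type (DCL1/DCL1) embryos at the torpedo stage and 3 with RNA of homozygous dcl1-15/dcl1-15 embryos. DCL1 encodes the Dicer-like enzyme that releases most plant microRNAs from their precursors. Wild-type embryos came from DCL1/DCL1 plants that segregated from a DCL1/dcl1-15 parent. Mutant embryos came from siliques of DCL1/dcl1-15 plants in which the other embryos had reached the torpedo stage, so stage was matched by silique and not by the form of the mutant embryo. Both genotypes share 1 background, Ws crossed back to Landsberg erecta 6-7 times, and each array holds a pool of 300 embryos taken out of their ovules. All cells of a mutant embryo carry the mutation, and 1 mutant allele was studied. The samples are labelled as biological replicates, without saying whether different parent plants supplied them.

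Levels are normalized log2 values, on which a step of 1 is a doubling, and a value belongs to its own probe set and cannot be set against that of another. Differences are dcl1-15 minus wild type, and a gene is said to rise or fall only where limma's Benjamini-Hochberg adjusted p over all 17122 probe sets tested was under 0.05. The SE and interval of a difference are limma's, from a variance drawn in part from all probe sets. The array medians lay between 6.34 and 6.48, and 26.5% to 27.8% of the probe sets of an array measured below log2 of 4. Detection calls were not used here, so such low values have no stated distance from background. The 2 arrays numbered 1 stood apart from the others in both genotypes, and DCL1 itself was not analysed here, so it gave no check of the labels. Among embryo-defining regulators LEC1, LEC2, FUS3 and ABI3 were not analysed here either. The arrays measure pools of whole embryos, so fewer cells that express a gene and less RNA per cell cannot be told apart.

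All 3 genes changed, LBD16 and IAA29 upward and IAA30 downward, and in each the 3 mutant arrays lay apart from the 3 wild-type arrays. Across all probe sets tested, 39.1% passed the threshold, 18.3% upward and 20.8% downward, so a call on its own does not set a gene apart. The groups failed to overlap in 52.5% of all probe sets, with the mutant higher in 24% and lower in 28.5%. LBD16 stood apart from IAA29 and IAA30 in size: it rose 33.1-fold, where IAA29 rose 1.76-fold and IAA30 was 2.11-fold lower. The fold intervals of IAA29 (1.32 to 2.33) and IAA30 (1.53 to 2.91) overlap, and differences between the genes were not tested. On the log2 scale the differences were 5.05, 0.81 and -1.08, where the median absolute difference over all probe sets was 0.50. With 3 arrays against 3, the exact two-sided permutation test gave p = 0.1 for each gene, the smallest value this design allows.

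**Figure D1:**
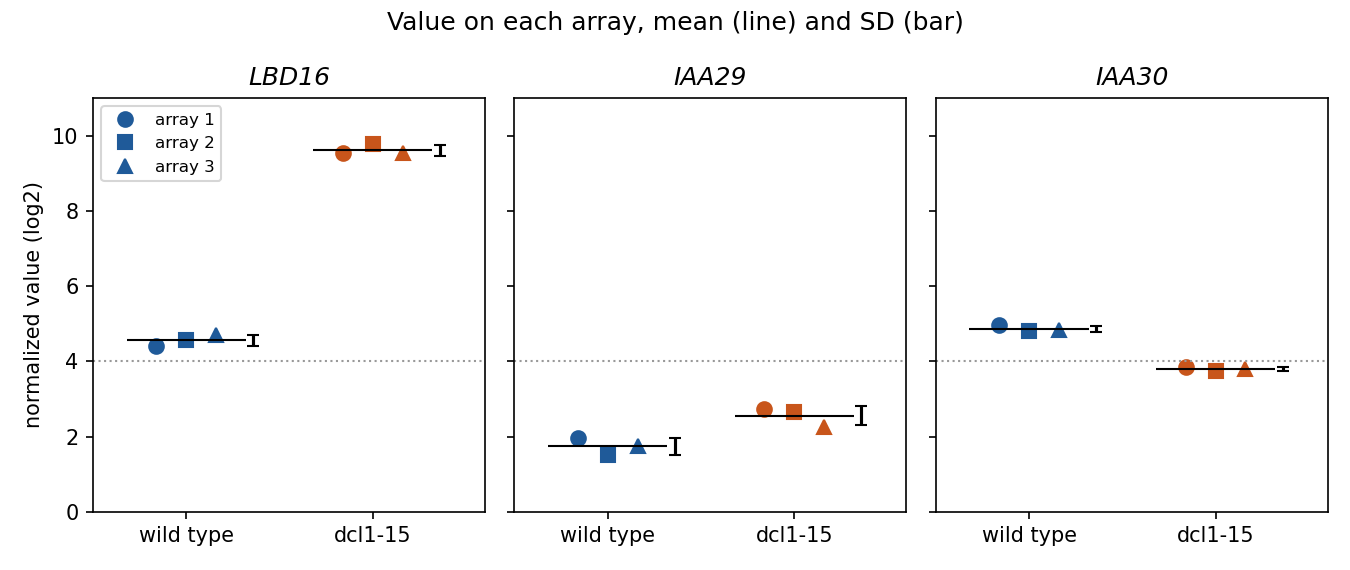
Normalized log2 value (y axis) of LBD16, IAA29 and IAA30 on each of the 3 wild-type and 3 dcl1-15 arrays, with symbols for the array number, the mean as a line, the SD as a bar and a dotted line at log2 of 4. LBD16 moves from a mean of 4.56 to 9.61, all IAA29 values lie below the dotted line, and IAA30 crosses it from 4.87 to 3.79.

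LBD16, which in roots helps turn pericycle cells into lateral root founder cells, measured 4.41, 4.57 and 4.71 on wild-type arrays 1, 2 and 3. On the dcl1-15 arrays it measured 9.53, 9.78 and 9.53. Every mutant value was high and every wild-type value low, with 4.82 between the highest wild-type and the lowest mutant array. The rise was 5.05 ± 0.21 (SE, n = 3 per genotype; 95% confidence interval 4.56 to 5.53; limma adjusted p = 2.82e-06), or 33.1-fold with an interval of 23.7 to 46.3. The SD was 0.15 within wild type and 0.14 within dcl1-15. Ordered from the largest rise down, LBD16 stood at place 51 of the 17122 probe sets tested, and at place 29 of the 9631 with a single named gene. It passed under all 17 alternative settings tried, with differences between 4.91 and 5.16, and the wild-type arrays lay above log2 of 4, so a floor at that value left the rise at 5.05.

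IAA29, an Aux/IAA gene known in seedlings as a target of the light-regulated PIF transcription factors, measured 1.95, 1.51 and 1.75 on the wild-type arrays. On the dcl1-15 arrays it measured 2.73, 2.67 and 2.26. The mutant values were the higher ones, but the gap between the groups was 0.31, less than the spread of 0.47 among the mutant arrays, of which number 3 was the lowest. The rise was 0.81 ± 0.18 (SE, n = 3 per genotype; interval 0.41 to 1.22; limma adjusted p = 0.00758). All 6 values lie near the low end of the scale, so with a floor at log2 of 4 no difference remains. The call was also lost when both arrays numbered 2 were left out (a rise of 0.64, adjusted p = 0.117) and when each probe set's own variance stood in for limma's shared estimate (adjusted p = 0.0724).

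IAA30, an Aux/IAA gene that the embryo regulators LEC2, FUS3 and AGL15 are known to activate, measured 4.96, 4.81 and 4.84 on the wild-type arrays. On the dcl1-15 arrays it measured 3.85, 3.74 and 3.79. Both groups were tight, with an SD of 0.08 in wild type and 0.06 in dcl1-15, and 0.96 separated the lowest wild-type from the highest mutant array. The fall was -1.08 ± 0.20 (SE, n = 3 per genotype; interval -1.54 to -0.62; limma adjusted p = 0.00376). Counted from the largest fall, IAA30 stood at place 955 of the 9631 probe sets with a single named gene, and IAA29 stood at place 1415 from the largest rise. All 3 mutant values of IAA30 were under log2 of 4, and raising every value below that to 4 gave a fall of -0.87 (adjusted p = 0.00102). Leaving out both arrays numbered 2, or both numbered 3, kept the fall at -1.08 and -1.09 but ended the call (adjusted p = 0.0762 and 0.0646).

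**Figure D2:**
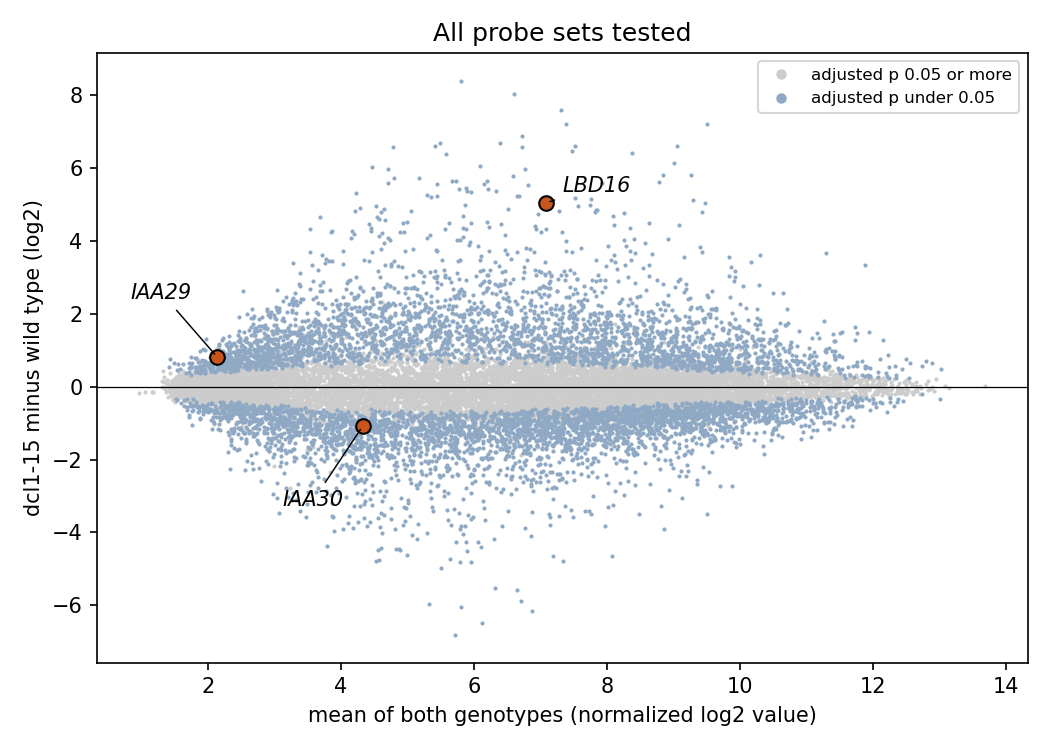
Difference between genotypes (y axis, dcl1-15 minus wild type, log2) against the mean of both genotypes (x axis, normalized log2 value) for the 17122 probe sets tested, blue where adjusted p was under 0.05, with the 3 genes as ringed orange points. LBD16, at 5.05, lies near the upper edge of the cloud, while IAA29 at 0.81 and IAA30 at -1.08 lie among many other called probe sets.

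Of the wider auxin pathway, 8 lists were drawn up: Aux/IAA genes, ARFs, receptors and co-repressors, LOB-domain genes, SAUR genes, GH3 genes, transport and synthesis. Of their 263 genes, 17 had a probe set with a single name, and of these 4 rose, 7 fell and 6 did not pass, where 18.3% of all probe sets rose and 20.8% fell. The median difference of the 17 was -0.25, against -0.07 over all probe sets. Without LBD16, IAA29 and IAA30, 2 of the remaining 14 rose, 6 fell and 6 did not pass, with a median of -0.36. None of the ARF or SAUR genes, nor the TIR1 and AFB receptors, had such a probe set, so ARF7 and ARF19, known activators of LBD16, were not analysed here. The same holds for all 13 listed auxin genes that are known microRNA or trans-acting siRNA targets, ARF10, ARF16, ARF17 and TIR1 among them.

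Of the 29 listed Aux/IAA genes, 6 were measured. IAA29 rose, IAA30, IAA18 and IAA33 fell, and IAA20 and IAA31 did not pass. IAA18, in which stabilizing mutations are known to fuse cotyledons, measured 4.39, 5.51 and 5.15 in wild type and 2.62, 3.84 and 3.31 in dcl1-15, with all mutant values below all wild-type values. Its fall was -1.76 ± 0.38 (SE; limma adjusted p = 0.00696), and -1.02 with a floor at log2 of 4. Its call was lost without both arrays numbered 3 (adjusted p = 0.0636) and with its own variance alone (adjusted p = 0.0879). IAA33, another Aux/IAA gene without the degron, measured 3.81, 2.96 and 3.64 in wild type and 2.12, 1.92 and 1.99 in dcl1-15. It fell by 1.46 on the log2 scale (limma adjusted p = 0.00156, and 0.0947 with its own variance alone), from a level already below log2 of 4. Both falls were larger in these values than that of IAA30, and the difference between the falls was not tested.

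IAA20 is the closest relative of IAA30, and its values overlapped between genotypes only through dcl1-15 array 1 (4.019) against wild-type array 2 (4.015). It measured 4.40, 4.02 and 4.30 in wild type and 4.02, 3.51 and 3.61 in dcl1-15, a difference of -0.53 ± 0.23 (SE; interval -1.05 to -0.0013; limma adjusted p = 0.102). IAA31, another relative of IAA30, measured 3.68, 4.27 and 3.91 in wild type and 3.76, 4.80 and 4.67 in dcl1-15. Its difference was 0.46 ± 0.32 (SE; interval -0.27 to 1.18; limma adjusted p = 0.285). The interval of IAA30, -1.54 to -0.62, overlaps that of IAA20 and lies below that of IAA31, and neither difference between genes was tested. Without both arrays numbered 1, IAA20 passed as lower (-0.60) and IAA31 as higher (0.65).

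**Figure D3:**
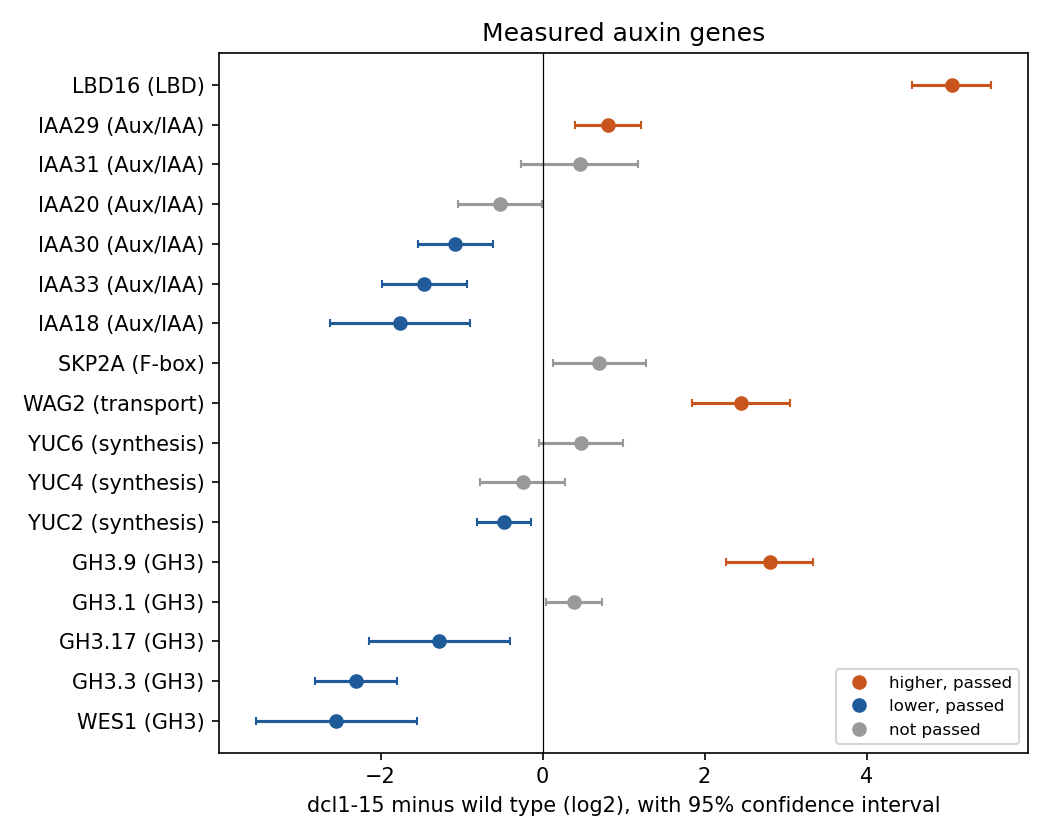
Difference between genotypes (x axis, dcl1-15 minus wild type, log2) with its 95% confidence interval for the 17 measured auxin genes, grouped by list and coloured by whether they passed at adjusted p under 0.05. LBD16 stands at 5.05 on the right, the Aux/IAA genes run from 0.81 for IAA29 to -1.76 for IAA18, and WES1 is lowest at -2.54.

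Genes that supply, move or inactivate auxin changed in both directions beside LBD16. WAG2, a kinase gene whose product directs PIN auxin carriers, measured 3.03, 3.21 and 2.70 in wild type and 5.66, 4.99 and 5.65 in dcl1-15. It rose by 2.45 ± 0.27 (SE; limma adjusted p = 2.41e-04), less than LBD16 but more than IAA29. YUC2, a flavin monooxygenase gene of auxin synthesis, fell by 0.48 (adjusted p = 0.0305) at values between 2.23 and 2.86. YUC4 differed by -0.25 and YUC6 by 0.47, and neither passed (adjusted p = 0.435 and 0.128). SKP2A, an F-box gene of the cell cycle, differed by 0.70 (adjusted p = 0.0528). With the replicate number as a block SKP2A and YUC6 passed as higher (adjusted p = 0.0223 and 0.0250), as did SKP2A without wild-type replicate 1 and YUC6 without dcl1-15 replicate 1. The GH3 family includes enzymes that couple auxin to amino acids. Of its measured genes GH3.9 rose by 2.80, while WES1, GH3.3 and GH3.17 fell by 2.54, 2.31 and 1.28. GH3.1 differed by 0.39 (limma adjusted p = 0.0700) and passed as higher with its own variance alone (adjusted p = 0.0349). The call of YUC2 was lost without replicate 2 or 3 of either genotype (adjusted p of 0.0810 to 0.117), and that of GH3.17 without any 1 dcl1-15 array (0.0533 to 0.102). WAG2 and GH3.9 rose by 1.43 and 1.10 when values under log2 of 4 were set to 4, and then neither YUC2, GH3.17 nor IAA33 passed. With its own variance alone WES1 did not pass either (adjusted p = 0.109).

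Little else of the lateral root programme around LBD16 could be read. Of 28 listed lateral root genes, LBD16 and RALFL34, a peptide gene of founder cells, were measured, and RALFL34 differed by -0.24 ± 0.24 (SE; limma adjusted p = 0.450). LBD16 was the only 1 of the 42 listed LOB-domain genes with a probe set of its own name. Of 16 listed regulators known to act on LBD16, IAA29 or IAA30, or related to such regulators, AGL18 was measured. AGL18, a MADS-box relative of AGL15, rose from 8.46 ± 0.56 to 10.23 ± 0.32 (SD, n = 3; limma adjusted p = 0.00176), a call lost with its own variance alone (adjusted p = 0.0746).

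The genes whose values ran most like those of each regulator were sought among the single-name probe sets that span at least 1 log2 unit, by Pearson's r over the 6 arrays. With LBD16 these were AT5G44630, AOP1, AT2G18540, AT1G62070 and LUL1, all with r of at least 0.998 and with rises from 2.32 (LUL1) to 5.38 (AT2G18540, a seed storage cupin). With IAA30 they were OPS, AT4G29270, AT3G21300, AT1G80450 and AT5G62710 at r of 0.998 to 0.999, with falls from -2.42 to -4.82, each larger than that of IAA30. With IAA29 they were UGT74D1, AT5G57500, RALFL33, AT5G58375 and AT2G14140 at r of 0.992 to 0.995, with rises from 0.91 to 1.31. Over 6 arrays of 2 genotypes such correlations rest mostly on the genotype difference that the genes share. An r above 0.9 was met by 941 of the 5327 other probe sets for LBD16 (17.7%), 1059 for IAA30 (19.9%) and 537 for IAA29 (10.1%).

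The genes that flank each regulator on its chromosome, looked up after the values of the 3 were known, did not all move with it. The nearest measured protein-coding genes beside LBD16 were AT2G42390, which differed by 0.09 (limma adjusted p = 0.638), and AT2G42450, which fell by 0.80 (adjusted p = 0.0352). Beside IAA29, AT4G32270 fell by 0.99 and AT4G32290 rose by 1.51, more than IAA29 itself. Beside IAA30, AT3G62080 differed by -0.29 (adjusted p = 0.582) and AT3G62110, the next gene in the order, rose by 0.76 (adjusted p = 0.00867). Between LBD16 and AT2G42390 lay 3 protein-coding genes without a single-name probe set, and 1 lay between LBD16 and AT2G42450. Such a gene, 1 in each case, also lay between IAA29 and AT4G32270, IAA29 and AT4G32290, and IAA30 and AT3G62080. The 33.1-fold rise of LBD16 was not shared by AT2G42390 or AT2G42450, and its immediate neighbours were not read.

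Some listed genes of seed coat and endosperm, the tissues that enclose the embryo, also rose on the mutant arrays. Of 26 listed seed coat and endosperm genes 7 were measured, of which 5 rose and 2 did not pass, with a median difference of 1.70. Over all probe sets 18.3% rose. Without dcl1-15 replicate 2 or replicate 3, 3 of the 7 rose, without both arrays numbered 3 there were 2, and with each probe set's own variance 1. Their summed level, as log2 of the sum of unlogged values, ran from 10.01 to 10.89 on the wild-type arrays and from 11.96 to 12.34 on the dcl1-15 arrays. This sum joins values of different probe sets and is weighted to the brightest, such as SWEET11 and DELTA-VPE. BAN and AGL80 add little to it. BAN, which defines the tannin-making seed coat layer, measured 1.53, 3.65 and 2.56 in wild type and reached 4.91 in dcl1-15. AGL80, a gene of the central cell that precedes the endosperm, lay between 3.43 and 4.35 on all 6 arrays. Its mutant values were all above its wild-type values, but the difference of 0.54 did not pass (limma adjusted p = 0.076). UGT80B1, also listed, differed by 0.36 with overlapping values and did not pass (limma adjusted p = 0.430). The listed genes FWA, AGL62, FIS2, PHE1, MEA, ZOU and EPR1 were not among those measured. DELTA-VPE, whose protease acts in the inner seed coat, ranged from 7.23 to 9.77 among the wild-type arrays. The rises of SAG29, DELTA-VPE, BAN, DFR and SWEET11 lay between 1.62 (SWEET11) and 3.07 (SAG29). The part of such tissue in the results for the 3 regulators was not tested.

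The calls of the 3 genes were set against the choice of arrays and scale. With both arrays numbered 1 left out, LBD16 rose by 5.01, IAA29 rose by 0.83 and IAA30 fell by 1.06, and all 3 passed. Leaving out any 1 array also left all 3 past the threshold, with adjusted p of at most 0.0362 for IAA29 and 0.0246 for IAA30. Centring the arrays on 2 reference genes moved the median of all differences from -0.07 to -0.20, and gave 4.91 for LBD16, 0.68 for IAA29 and -1.21 for IAA30, in the same directions. The reference genes did not run alike. AT2G28390 differed by 0.39, with all mutant values above all wild-type values (limma adjusted p = 0.0729), and AT4G34270 by -0.12 (limma adjusted p = 0.590).

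**Figure D4:**
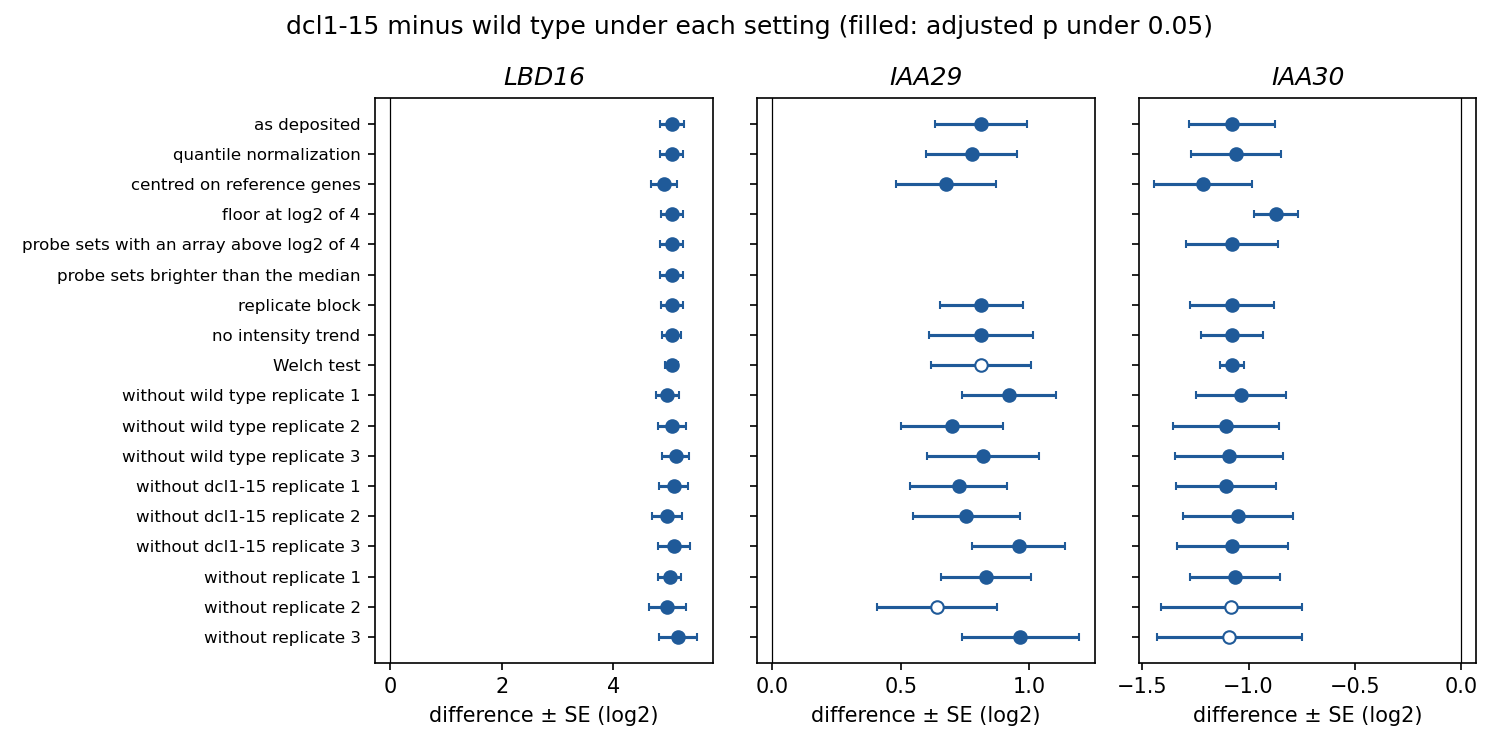
Difference between genotypes with its SE (x axis, log2) for LBD16, IAA29 and IAA30 under the values as deposited and each alternative setting (y axis), filled where adjusted p was under 0.05. LBD16 stays between 4.91 and 5.16; open points mark probe-set variances alone and the arrays numbered 2 left out for IAA29, and the arrays numbered 2 or 3 left out for IAA30. Settings that leave out the probe set, or put all its values at the floor, have no point.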

How the data were processed

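Per the submitters' processing notes GCRMA and MAS5 were used; neither a version nor which of them made the values is stated. The deposited table holds normalized log2 values, a scale judged from their range, for 17159 probe sets. The choice of its rows is not stated in the labels. Per the labels' protocols, 50 ng of RNA was amplified to biotin-labelled cDNA. After 37 control probe sets were set aside, 17122 were tested, of which the platform annotation names 1 gene for 9631. RefSeq's gene table (TAIR10.1) held 9584 of these.

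The comparison of genotypes used all 6 arrays in limma 3.58.1 under R 4.3.3 (lmFit and trended eBayes), and p-values were Benjamini-Hochberg adjusted across every probe set tested. In the lists, the brightest probe set stands for a gene that has several. Members, lists and tests were chosen with earlier results of these data known. The rule named the 3 members whatever their values, up to 3 largest called changes in each direction of a list, and the 5 genes most correlated with each member; other genes named were chosen after their values were seen. Same-numbered arrays correlated in their deviations from the group means (r = 0.48, 0.21 and 0.36), so a block by number was tried. Wild type 2 with dcl1-15 replicate 3 (r = 0.31) and wild type 3 with dcl1-15 replicate 2 (r = 0.15) did too, so pairing of numbers 2 and 3 is not shown. The labels do not say what a number marks. The p-values and SEs of limma rest on the spread between these samples and on a variance estimate shared across probe sets. For LBD16, IAA29 and IAA30 limma's SE was 0.21, 0.18 and 0.20, where their own variances alone gave 0.12, 0.19 and 0.06. For arrays, their number limits the precision.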

Additional observations from a re-analysis of the deposited data

How the results depend on the processing

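Across 17 alternative settings LBD16, IAA29 and IAA30 kept their directions wherever a difference remained, and LBD16 passed under each. IAA29 did not pass with Welch's test (0.81, adjusted p = 0.0724) or with a floor at log2 of 4, which sets its difference to 0, and it has no value under the filters on dim probe sets. IAA30 has none among probe sets brighter than the median. With arrays left out, the difference was 4.97 to 5.16 for LBD16, 0.64 to 0.97 for IAA29 and -1.11 to -1.03 for IAA30. The call of IAA29 was lost without both arrays numbered 2, and that of IAA30 without both numbered 2 or both numbered 3. The replicate number as a block left the 3 calls as they were (adjusted p = 2.64e-06 for LBD16, 0.00414 for IAA29 and 0.00265 for IAA30) and called 8425 probe sets and 13 of the 17 auxin genes. In all, 11 auxin genes and 6702 probe sets were called as deposited. With a floor 7 auxin genes of 12 were called: IAA29, IAA33 and YUC2 could not be tested, and GH3.17 was tested and did not pass. Among probe sets brighter than the median 3 auxin genes of 4 and 3369 probe sets of 8561 were called, and with Welch's test 6 and 2082. With arrays left out these counts ran from 7 to 15 and from 2493 to 8905. Both arrays numbered 2 left out gave the lowest count of probe sets, and without both numbered 3 it was 3151. Higher calls made up 46.9% of calls as deposited and 36.1% with centring on reference genes. The cause of the calls lost was not tested.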
